A study of Mus musculus with 4 samples.

Results

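The 30 genes described here encode enzymes that build cholesterol, proteins that sense sterols, and proteins that carry, store and export cholesterol. They were listed by name, with no threshold on a measured value, and each name was looked up in the authors' table of mammary gland RNA-Seq, where the row with the highest mean level was kept if a name had several rows. All 30 names were found, among 21895 distinct name entries in the table, where a merged locus has a single entry for all its names. Of the 30, 29 were above the minimum of 1 FPKM (sequenced fragments of a locus, scaled to its exon length and to the size of the library) on average over both genotypes, and *Hmgcs1* was listed at 0 in both.

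Poly(A) RNA came from whole mammary glands of 4 mice aged 2 months, on a mixed background of the 129SV, FVB/N and C57BL/6 strains. Of these, 2 were wild type (*miR-21*+/+) and 2 lacked the microRNA miR-21 (*miR-21*-/-), and the question was how its loss alters gland transcripts. The table holds a single FPKM value per genotype that stands for both of its mice, so the values below have no standard deviation, no test across mice could be made, and a difference of any size may lie within the spread between animals. Differences are plain log2 ratios of the *miR-21*-/- value over the *miR-21*+/+ value, and the read depth behind them is unknown. The targeted locus, where the host gene *Vmp1* and *Mir21* share a row, stood at 42.5 FPKM in *miR-21*+/+ and 68.2 FPKM in *miR-21*-/- glands (log2 ratio 0.68). Poly(A) RNA does not measure the mature microRNA, so this row does not check the genotypes.

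Cells make cholesterol from acetyl-CoA through mevalonate, farnesyl diphosphate, squalene and lanosterol. When membranes of the endoplasmic reticulum hold little sterol, Scap escorts the transcription factor Srebf2 to the Golgi, where proteases release it to switch on the genes of the pathway. When sterol is plentiful, the Insig proteins hold Scap back. Surplus cholesterol is esterified for storage or handed to lipoproteins by ABC transporters, whose genes respond to oxysterols through the liver X receptors. In the mammary gland the fat pad stores sterol in lipid droplets, and in lactation the secretory epithelium puts it into milk fat globules. The authors describe the glands sequenced here as virgin.

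Exact sequence matches of these genes to miR-21 and to the element bound by Srebf2 were few, and they are shown as a description of the genes. A microRNA pairs with target transcripts mainly through its seed, bases 2 to 8, shown in capitals in the mature miR-21 of 22 bases taken from RefSeq (GRCm38.p6):
mmu-miR-21a-5p: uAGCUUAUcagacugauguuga
Its exact match in a transcript reads ATAAGCT. The longest annotated 3′ UTR (GENCODE, mm9) was available for 29 of the 30 genes, and 1 of them, that of *Sc5d*, held a match, compared with 6.1% of the 19915 genes with an annotated 3′ UTR. The match lies in exon 6 of 6 of *Sc5d*, on the minus strand at chr9:42063155-42063161, and begins at base 264 of a 3′ UTR of 1165 bases. It is followed by an A, and it stands in capitals here:
Sc5d site: ttaaatacgatagaaaATAAGCTactca
*Sc5d*, the lathosterol desaturase that acts near the end of the pathway, was among the 4 genes whose value was higher in *miR-21*-/- glands, at 31.0 FPKM against 27.4 FPKM in *miR-21*+/+ (log2 ratio 0.18). A match in sequence is a description and not evidence that the site is used.

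Srebf2 binds sterol regulatory elements, of which the letters TCACNCCAC were searched on both strands in windows from 250 bases before to 50 bases after annotated gene starts (RefSeq, GRCm38.p6). Windows were held for 23 of the 30 genes, and those of *Abcg1*, *Fdft1*, *Fdps*, *Npc1*, *Scarb1*, *Sqle* and *Stard4* were not analysed here. Of the 31 windows of these genes only that of *Hmgcs1* held these letters (3.23%), 137 bases before the start, against 1.24% of all 32851 windows. Other forms of the element were not searched, so a window without these letters may still hold one. The level of *Hmgcs1* is not known here, as described below. The box CCAAT, bound by the factor NF-Y that works beside Srebf2, was found on either strand in 19 of the 31 windows of these genes (61.3%) and in 37.4% of all windows. Its place in the window of *Insig1*, the gene with the largest difference between genotypes, was 216 bases before the start, where it reads ATTGG on the strand of the gene. Capitals mark the element and the box:
Hmgcs1 element: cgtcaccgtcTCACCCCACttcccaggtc
Insig1 box: ccctcctcccATTGGctccggcggc

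Most of the 29 genes above the minimum had a lower value in *miR-21*-/- glands, and few differed by much. The value was lower for 25 and higher for 4, while 55.7% of the 13092 named loci above the minimum were lower. When both columns were scaled to equal sums over named loci, which moves every log2 ratio by 0.098, the split was 19 lower and 10 higher. The share of 55.7% is for unscaled values and cannot be set beside this split. That scaling moved the median of all named loci to 0.07 and that of the 29 genes to −0.05. Unscaled, the median log2 ratio of the 29 genes was −0.14, that of all named loci was −0.03, and the middle 50% of all named loci ran from −0.17 to 0.11. At a difference of at least 1.5-fold, 3 genes were lower (*Insig1*, *Abcg1* and *Acat2*) and 0 were higher, which compares with 5.75% of all named loci lower and 4.97% higher. The 3 genes are 10.3% of the 29. At a ratio of 0.8 or less, which is a level at least 20% lower, there were 10 genes (34.5%), against 13.6% of all named loci. By the same factor in the other direction 0 genes were higher, against 10.4% of all named loci. Genes of a shared pathway are not independent of each other, the list was proposed with earlier results of these data known, and these shares describe the pooled values only. In bulk tissue, fewer cells of a type and less RNA per cell cannot be told apart.

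**Figure D1:**
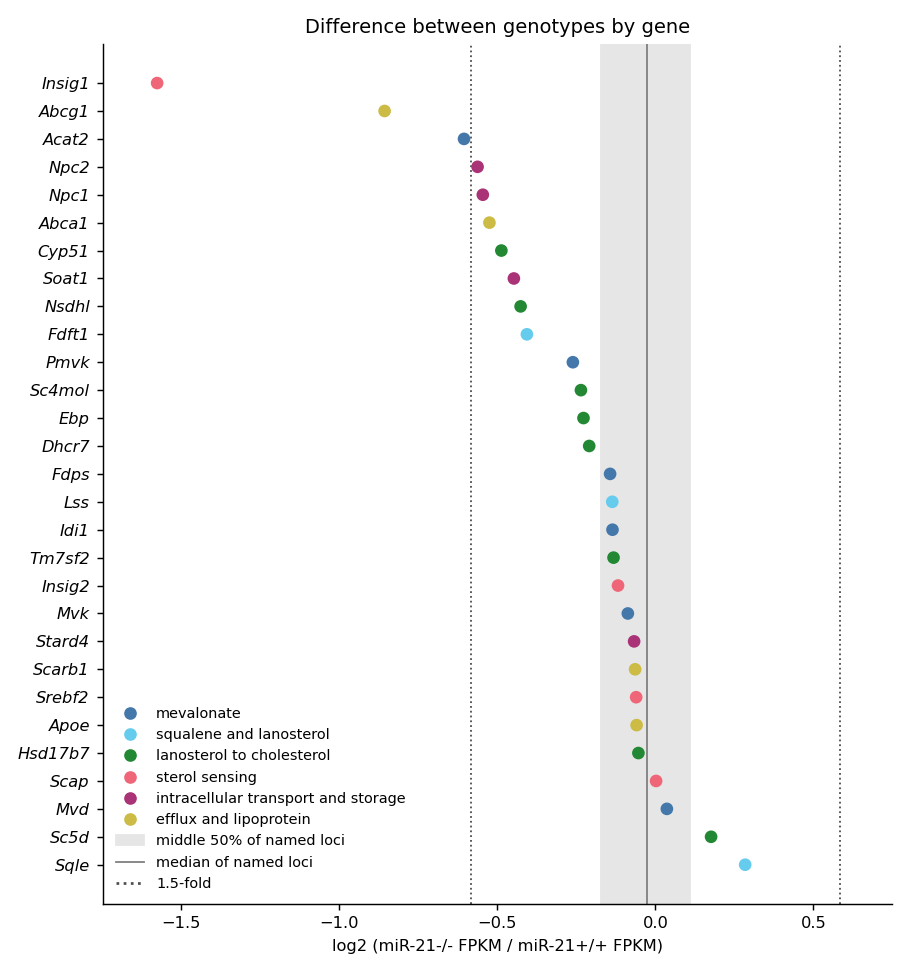
Log2 ratio of the *miR-21*-/- to the *miR-21*+/+ FPKM value for each of the 29 genes above the minimum, sorted and coloured by role, with no error bars because the table has a single value per genotype. The grey band is the middle 50% of all named loci (−0.17 to 0.11), the grey line their median and the dotted lines mark 1.5-fold: *Insig1* stands apart at −1.58, *Abcg1* and *Acat2* also lie beyond the left dotted line, and no gene lies beyond the right one.

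The sterol sensors were split, with a large difference for one gene and small differences for the other 3. *Insig1* (chr5:28397952-28405205, plus strand, 5 exons) encodes the retention protein whose own gene is a target of Srebf2 and which is also abundant in fat cells. It stood at 88.0 FPKM in *miR-21*+/+ and 29.5 FPKM in *miR-21*-/- glands, 2.98-fold lower, with a log2 ratio of −1.58. This was rank 133 from the lowest of the 13092 named loci and the only difference of at least 2-fold among the 29 genes. Its paralogue *Insig2* (chr1:123200930-123230431), which performs the same retention and is not driven by Srebf2 in the same way, was at 22.0 and 20.3 FPKM, a log2 ratio of −0.12. The ratio of the *Insig1* to the *Insig2* level was therefore 3.99 in *miR-21*+/+ glands and 1.45 where miR-21 was absent. *Srebf2* itself (chr15:81977699-82035390) was at 18.1 and 17.4 FPKM, and its log2 ratio of −0.06 lay inside the middle 50% of named loci. *Scap*, the escort protein, was nearly equal at 15.757 and 15.779 FPKM, but the authors' table marks the comparison of this row as failed, the only such mark among the 29 genes. The row of *Mir33*, a microRNA inside *Srebf2* known to act on *Abca1*, was listed at 0 in both genotypes, and poly(A) RNA does not measure it when mature.

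Of the 7 genes of the mevalonate branch, 5 of the 6 above the minimum had a lower value without miR-21, with a median log2 ratio of −0.14. *Acat2* (chr17:13135908-13153591, minus strand, 9 exons), the cytosolic thiolase that joins acetyl-CoA units at the start of the branch, was the most abundant of them. It stood at 30.9 FPKM in *miR-21*+/+ and 20.3 FPKM in *miR-21*-/- glands, 1.52-fold lower with a log2 ratio of −0.61. This lies close to the limit of 1.5-fold, and *Acat2* was no longer past it after 1 was added to both values before the ratio (−0.58) or when the columns were scaled to equal medians (−0.58), upper quartiles (−0.57) or sums over named loci (−0.51). *Pmvk*, the kinase that makes mevalonate diphosphate, was at 18.3 and 15.3 FPKM (−0.26). The isomerase *Idi1* was at 12.3 and 11.2 FPKM (−0.14), and *Fdps*, which builds farnesyl diphosphate, was at 17.1 and 15.4 FPKM (−0.14). *Mvk*, mevalonate kinase, was at 8.33 and 7.84 FPKM (−0.09). Thus the measured genes of the branch downstream of *Acat2* all kept a ratio above 0.8.

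*Mvd*, the decarboxylase of this branch, was the exception in sign, at 3.40 FPKM in *miR-21*+/+ and 3.49 FPKM in *miR-21*-/- glands (0.04). A further row of the same name at the same place was at 0.370 and 0.168 FPKM, below the minimum, and was not used. *Hmgcs1*, which makes HMG-CoA and is a classic target of Srebf2, has rows in the table only at a pair of places of an unplaced part of chromosome 13 (114710 to 132325 and 308620 to 326235 of the sequence named 13_random). Both are listed at 0 in both genotypes. How the authors treated reads that match several places is not given in the sources used here, so the level of *Hmgcs1* is not known from this table.

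The 3 genes that make squalene and lanosterol did not share a direction. *Fdft1* (annotated at chr14:63763990-63796630), squalene synthase, was at 16.9 FPKM in *miR-21*+/+ and 12.7 FPKM in *miR-21*-/- glands, a log2 ratio of −0.41. The locus of its row, chr14:63741302-63796630, is longer and is shared with *Ctsb*. *Sqle* (chr15:59146647-59162748), the squalene epoxidase and a rate-limiting step, was at 7.29 and 8.87 FPKM. Its log2 ratio of 0.28 was the highest of the 29 genes and stood for a level 1.22 times as high. *Lss*, which closes the rings to give lanosterol, was at 6.21 and 5.65 FPKM (−0.14). The neighbours *Fdft1* and *Sqle* in the pathway thus differed in opposite directions.

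From lanosterol to cholesterol, 7 of 8 genes had a lower value without miR-21, with a median log2 ratio of −0.22 and a range from −0.49 to 0.18. *Cyp51* (chr5:4080674-4104697), the demethylase that takes lanosterol, was at 5.75 FPKM in *miR-21*+/+ and 4.10 FPKM in *miR-21*-/- glands (−0.49). *Nsdhl*, a dehydrogenase of the following demethylation, was at 16.01 and 11.91 FPKM (−0.43). These were the 2 genes of the stretch at a ratio under 0.8. *Sc4mol*, the sterol C4 oxidase of the same demethylation, was at 9.32 and 7.92 FPKM (−0.24), and the isomerase *Ebp* was at 19.3 and 16.5 FPKM (−0.23). *Dhcr7*, which makes cholesterol from its last precursor, was at 6.76 and 5.85 FPKM (−0.21). *Hsd17b7*, the ketoreductase, had the lowest level of the 29 genes in both genotypes, 2.15 and 2.07 FPKM (−0.05). *Tm7sf2*, a C14 reductase, was at 16.8 and 15.4 FPKM (−0.13), in a row it shares with *1110014N23Rik*, so its own level cannot be separated. Summed over the 17 synthesis genes above the minimum, the level was 224 FPKM in *miR-21*+/+ and 196 FPKM in *miR-21*-/- glands.

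**Figure D2:**
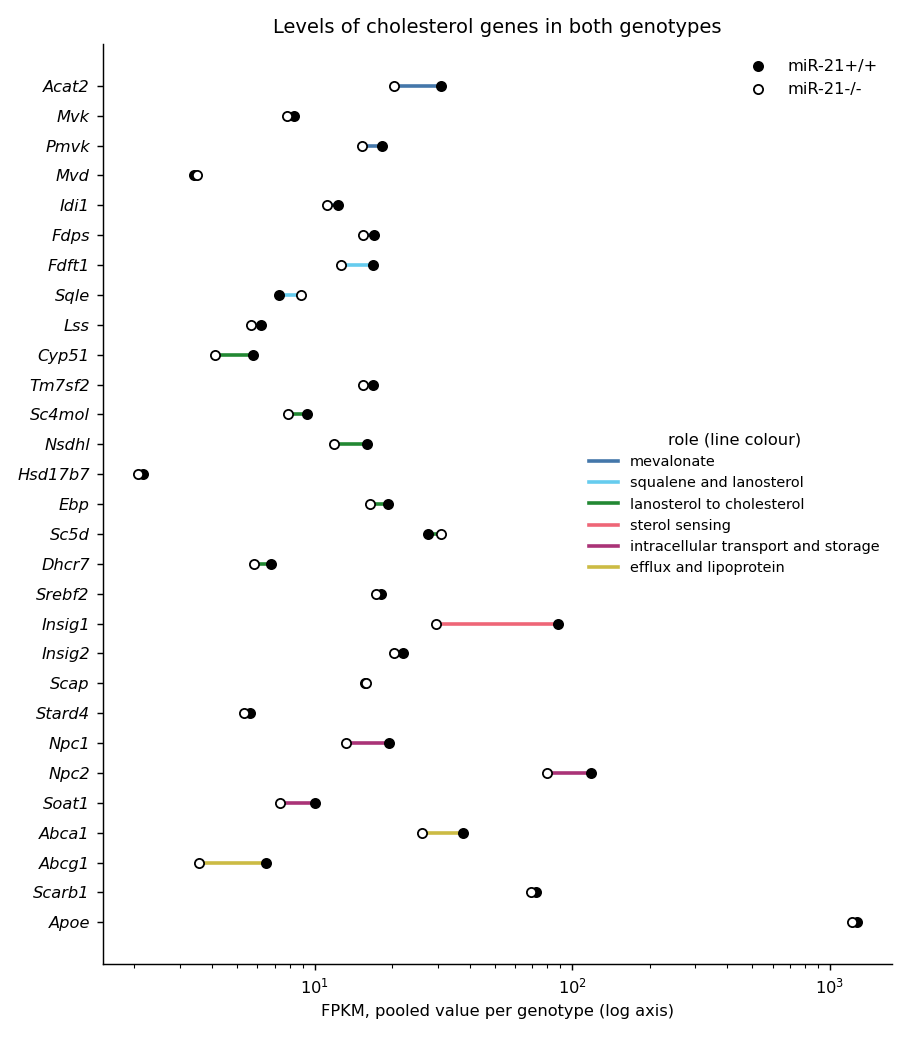
FPKM value of each of the 29 genes above the minimum in *miR-21*+/+ (filled points) and *miR-21*-/- glands (open points), on a log axis, with the joining line coloured by role and no error bars because each point is the pooled value of a genotype. The longest line is that of *Insig1*, from 88.0 to 29.5 FPKM, while the most abundant row, that of *Apoe*, hardly shifts, from 1267 to 1216 FPKM.

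Genes that carry and store cholesterol inside the cell had a median of −0.50. Of the 4, 3 were lower by at least 20% (13.6% of all named loci) and 0 by 1.5-fold (5.75%). *Npc2*, the soluble lysosomal protein that picks cholesterol out of degraded lipoproteins, was at 118 FPKM in *miR-21*+/+ and 79.8 FPKM in *miR-21*-/- glands, a log2 ratio of −0.56. *Npc1*, the membrane protein that receives cholesterol from Npc2, was at 19.4 and 13.3 FPKM (−0.55). The partners thus differed by nearly the same factor, and the level of *Npc2* was 6.07 times that of *Npc1* in *miR-21*+/+ glands and 6.00 times where miR-21 was absent. *Soat1*, which esterifies cholesterol for storage, was at 10.02 and 7.34 FPKM (−0.45). *Stard4*, a cytosolic carrier whose gene is itself a target of Srebf2, was at 5.60 and 5.35 FPKM (−0.07).

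Among the 4 genes of efflux and lipoproteins, the ABC transporters were lower and the other two genes differed little. *Abcg1* (chr17:31194639-31254926, plus strand), which passes cholesterol to high density lipoprotein, was at 6.47 FPKM in *miR-21*+/+ and 3.57 FPKM in *miR-21*-/- glands. This was 1.81-fold lower, a log2 ratio of −0.86 and rank 369 from the lowest of all named loci. *Abca1* (chr4:53043661-53172767, minus strand), which loads cholesterol and phospholipid onto lipid-free apolipoproteins, was at 37.7 and 26.2 FPKM, 1.44-fold lower (−0.53). *Scarb1*, the receptor for high density lipoprotein, was at 72.2 and 69.0 FPKM (−0.06). The row of *Apoe*, the main apolipoprotein made outside the liver, was by far the most abundant, at 1267 and 1216 FPKM (−0.06), but it is merged with *Tomm40*, a mitochondrial import gene, and the table does not separate their reads. Without that merged row the median of this role was −0.53 over 3 genes, rather than −0.29.

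Over the 8 genes of transport, storage and efflux, all 8 were lower in *miR-21*-/- glands, against 55.7% of all named loci. By at least 20%, 5 of the 8 were lower, against 13.6% of all named loci, and their median was −0.49. With equal sums over named loci, 5 of these 8 genes were lower and 3 (*Stard4*, *Scarb1* and *Apoe*) higher, while the median of all named loci moved to 0.07. Without that scaling, 14 of the 17 measurable synthesis genes were lower, 4 of them by at least 20%, with a median of −0.14. Whether these medians differ was not tested, since a single value per genotype gives no spread between mice.

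**Figure D3:**
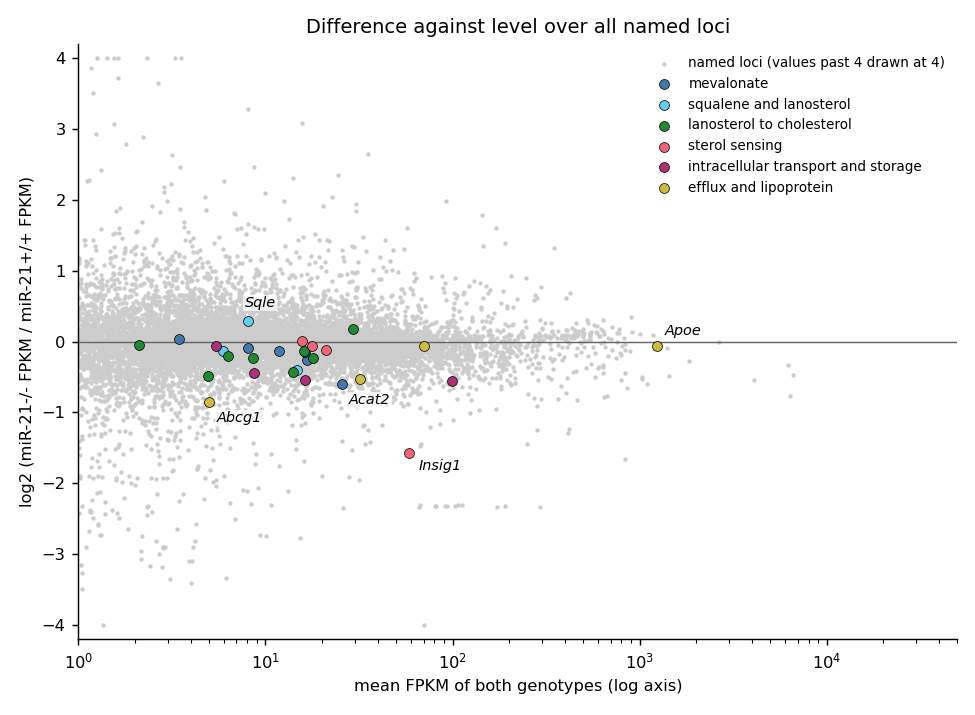
Log2 ratio of the *miR-21*-/- to the *miR-21*+/+ FPKM value against the mean FPKM of both genotypes (log axis) for all 13092 named loci above the minimum (grey) and the 29 genes (coloured by role). Loci of low level scatter more widely, and at its mean level of 58.7 FPKM *Insig1* lies below most grey points of its level, while *Abcg1*, at 5.02 FPKM, lies where the scatter is wider.

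Lists of further sterol genes had medians close to that of all named loci, with a few larger single differences. In a list of 15 other sterol and isoprenoid genes, 10 were lower and 5 higher, 0 passed 1.5-fold and the median was −0.06. Of 23 other genes that handle sterols, 21 were above the minimum, with 12 lower, 9 higher and a median of −0.09. *Gramd1b*, a carrier between plasma membrane and endoplasmic reticulum, was lower past 1.5-fold, at 10.6 and 5.72 FPKM (−0.89). *Cyp7b1*, an oxysterol hydroxylase, was higher, at 0.693 and 1.76 FPKM (1.35), and so was *Soat2* (0.70), whose row shares its locus with an abundant neighbour. The comparison of *Gramd1b* is marked as failed in the authors' table, as is that of *Acaca* below.

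Lists tied to the liver X receptors and to fatty acid synthesis had lower medians than the sterol lists. Of 10 genes of the liver X receptors and their known targets, 8 were above the minimum, with a median of −0.38. Of these 8, 7 were lower, 6 by at least 20% and 1 by 1.5-fold. Among all named loci 55.7% were lower, 13.6% by at least 20% and 5.75% by 1.5-fold, while 4.97% were higher past 1.5-fold. The receptor gene *Nr1h3*, in a row merged with *Madd*, was at 40.6 FPKM in *miR-21*+/+ and 33.0 FPKM in *miR-21*-/- glands (−0.30), and *Nr1h2*, whose comparison is marked as failed in the authors' table, at 30.8 and 31.8 FPKM (0.05). Both were named for their role. *Lpl*, lipoprotein lipase, was the one past 1.5-fold, at 1319 and 871 FPKM (−0.60). Of the 14 genes in the fatty acid synthesis list, many of them targets of the related factor Srebf1, 12 were lower with a median of −0.40. Of these 12, 5 were past 1.5-fold, and 1 gene of the list was higher past that limit. The most abundant past the limit were *Thrsp* at 842 and 495 FPKM (−0.77), *Acaca* at 187 and 125 FPKM (−0.59), *Elovl6* at 70.8 and 37.8 FPKM (−0.91) and *Elovl5* at 54.1 and 31.8 FPKM (−0.77). *Lpl* and *Acaca* lie close to the limit of 1.5-fold, which is 0.585 on the log2 scale. Scaling to equal medians adds 0.026 to every log2 ratio, and both then fall inside the limit. *Srebf1* itself was at 70.6 and 68.5 FPKM (−0.04).

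**Figure D4:**
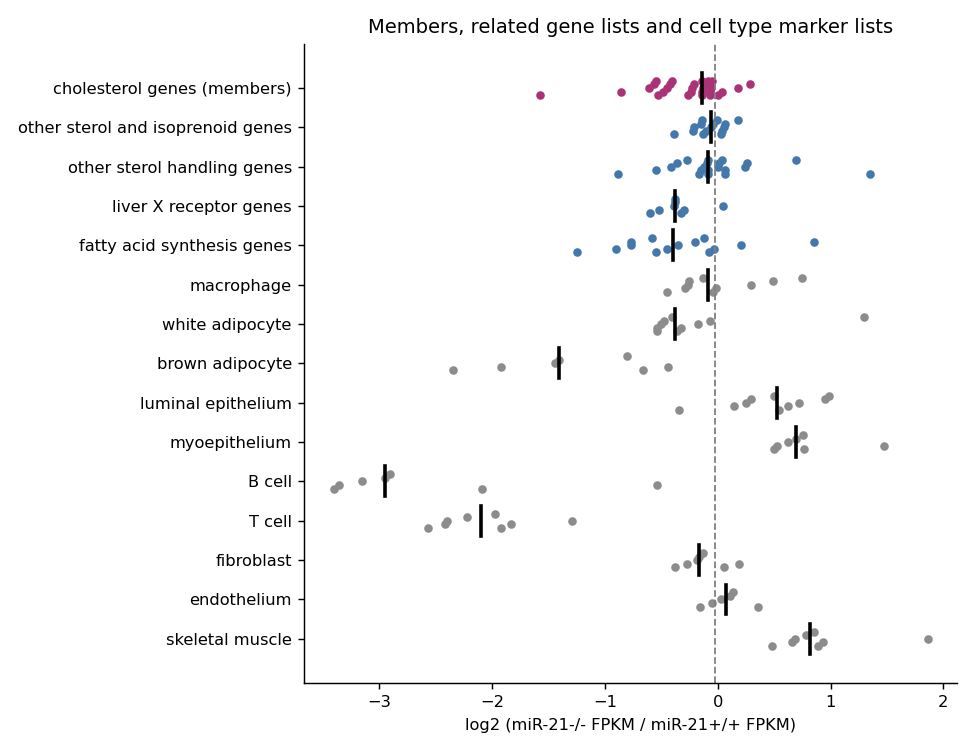
Log2 ratio of the *miR-21*-/- to the *miR-21*+/+ FPKM value for every gene above the minimum (points) in the cholesterol list, 4 related gene lists and 10 lists of cell type markers, with the median of each list as a black bar and the median of all named loci as a dashed line. The cholesterol genes lie mostly to the left of the dashed line, with a median of −0.14 and a lowest value of −1.58. The brown adipocyte, B cell and T cell lists lie far to the left, and the epithelial and muscle lists lie to the right.

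Markers of several cell types differed between the pooled samples, and their part in the values of the cholesterol genes was not tested. No marker in the lists was at 0 in either genotype. White adipocyte markers summed to 19573 FPKM in *miR-21*+/+ and 14797 FPKM in *miR-21*-/- glands, with 9 of 10 lower and a median of −0.38. Their most abundant members were *Fabp4* (−0.48), *Cfd* (−0.32) and *Pck1* (−0.54). Brown adipocyte markers summed to 283 and 146 FPKM, with 7 of 7 above the minimum lower and a median of −1.41, and their most abundant members were *Cox8b* (−0.66), *Cidea* (−1.41) and *Cpt1b* (−0.44, merged with other genes). The log2 ratio of *Insig1*, −1.58, lay beyond every white adipocyte marker (−0.54 to 1.29) and within the range of the brown ones (−2.35 to −0.44). It also lay within the ranges of the B cell markers (−3.40 to −0.54) and of the T cell markers (−2.57 to −1.29) described below.

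Macrophages handle much of a tissue's cholesterol through *Abca1*, *Abcg1* and *Soat1*, and their markers summed to 919 FPKM in *miR-21*+/+ and 855 FPKM in *miR-21*-/- glands. Of 10 markers 7 were lower and 3 higher, with a median of −0.09, among them *Lyz2* (−0.25), *Cd68* (−0.02, merged with other genes) and *Ctss* (−0.29). The 3 higher ones, named after their values were seen, were *Cd14* (0.75, the only marker of the list past 1.5-fold), *Fcgr1* (0.49) and *Mrc1* (0.30). B cell markers had a median of −2.96 and T cell markers of −2.10, with 7 of 7 and 8 of 8 lower and sums of 103 against 53.4 FPKM and of 44.4 against 10.8 FPKM. Abundant members were *Cd79a* (−0.54, merged with *Arhgef1*), *Cd79b* (−2.09), *Lck* (−1.98), *Cd3g* (−2.22) and *Cd3e* (−2.57). The merged row of *Cd79a* makes up most of the B cell sums, at 70.3 FPKM in *miR-21*+/+ and 48.3 FPKM in *miR-21*-/- glands. Fibroblast markers (median −0.17, sums 4975 and 4405 FPKM) and endothelial markers (median 0.07, sums 147 and 155 FPKM) differed less.

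Epithelium and muscle stood the other way. Luminal markers summed to 709 FPKM in *miR-21*+/+ and 963 FPKM in *miR-21*-/- glands, with 9 of 10 higher and a median of 0.52, and *Krt19* (0.15), *Krt18* (0.55) and *Krt8* (0.72) were the most abundant. Myoepithelial markers summed to 337 and 543 FPKM with 7 of 7 higher and a median of 0.70, led by *Acta2* (0.62). Skeletal muscle markers summed to 1226 and 2048 FPKM with 8 of 8 higher and a median of 0.82, led by *Acta1* (0.68). The median of the 29 cholesterol genes, −0.14, lay between those of these lists and of the fat and lymphocyte lists. Those lists lie far apart, and the part of any cell type in this median was not tested.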

How the data were processed

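The authors purified poly(A) RNA from mammary glands, read them from one end on a HiSeq instrument, placed the reads on mm9 by TopHat and derived FPKM by Cufflinks. They deposited Cuffdiff output with 1 FPKM value per locus and genotype, pooled over 2 mice. Versions, annotation and normalization options are not given in the sources used here. The columns of the authors' own comparison (log2 fold change, test statistic, p-value, q-value and call) were not used.

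Here log2 ratios were computed from the FPKM values without a pseudocount, over named loci (1 row per name, highest mean) at or above a mean of 1 FPKM and above 0 in both genotypes. 4 loci at 0 in 1 genotype were left out. Locus starts count from 0 in the table, since 8171 named loci matched an annotated start after adding 1 and 471 as printed, and are given counting from 1. Planted folds, set well past the limit, were recovered in simulated data. That checks the code and says nothing of the differences reported here. Merged loci count for each of their names among the members and the lists, and once among all named loci. The members, the lists and the tests were chosen with earlier results of these data known. Named were all members, of each related list up to 4 genes past 1.5-fold, of each marker list up to 3 by mean FPKM, and the few said to be named for their role, apart from some genes not reported here. Python 3.11.15, numpy 2.4.6, pandas 2.3.3 and matplotlib 3.10.9 were used. Alternatives were other FPKM minimums, pseudocounts of 0.1 and 1, fold limits, 4 scalings, all rows of a name and no merged loci.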

Additional observations from a re-analysis of the deposited data

How the results depend on the processing

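No paired analysis was possible because each genotype has just 1 pooled value in the table, and likewise no mouse could be left out in turn. A log2 ratio or a median was said to move when it changed by more than 0.208, the robust standard deviation of the log2 ratios across all named loci, and a count when it changed by more than 1.5 times. The first is a yardstick across genes and says nothing of the spread between mice. Scaling to equal sums over all loci moved every log2 ratio by −0.63 and the median of named loci to −0.66. Under it 27 members were lower past 1.5-fold, as were 64.8% of named loci with 0.955% higher, the median of the members was −0.77, and the medians by role were −0.77 (mevalonate), −0.77 (squalene and lanosterol), −0.85 (lanosterol to cholesterol), −0.72 (sensing), −1.13 (transport and storage) and −0.93 (efflux). Relative to the shift these are the values of the report. With equal sums over named loci, 4.32% of named loci were lower and 6.62% higher past 1.5-fold, and 2 members were lower. The fold limit set the count of lower members, 10 at a ratio of 0.8 or less and 1 at 2-fold. Without merged loci the efflux median was −0.53. With equal medians, equal upper quartiles or a pseudocount of 1, the count past 1.5-fold was 2, without *Acat2*. The other FPKM minimums, the pseudocount of 0.1 and the row choices kept the count at 3, and no log2 ratio of a member past 1.5-fold changed sign.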

Other observations

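The row of *Soat2*, the cholesterol esterifying enzyme of liver and gut, stood at 68.5 FPKM in *miR-21*+/+ and 111 FPKM in *miR-21*-/- glands (log2 ratio 0.70), above *Soat1* in both. A further *Soat2* row of the same locus was at 0.635 and 0.600 FPKM. The gene *Igfbp6*, whose row has the same locus, was at 87.7 and 139 FPKM (0.67), close to the first *Soat2* row in level and in ratio. Whether reads of *Igfbp6* enter that row was not tested. *Npc1* and *Fdft1* also share a locus in the table with another gene, and their values differed from those of these genes: *3110002H16Rik* beside *Npc1* was at 13.4 and 12.8 FPKM (−0.07), and *Ctsb* beside *Fdft1* was at 329 and 283 FPKM (−0.22).

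Not all lipid genes driven by the Srebf factors leaned the same way. The desaturase *Fads2* stood at 16.05 FPKM in *miR-21*+/+ and 29.1 FPKM in *miR-21*-/- glands (0.86) and *Fads1* at 32.9 and 37.9 FPKM (0.21), while *Acacb*, the mitochondrial acetyl-CoA carboxylase, was at 49.6 and 20.8 FPKM (−1.25), in a comparison marked as failed in the authors' table. *Fads2*, *Fads1* and *Acacb* are named here because of their values.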
